A study of Mus musculus with 16 samples.

Results

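Gene expression in the epididymis of newborn male mice was set against a pool of whole newborn mice, to describe which transcripts the organ holds in excess and which it lacks. The comparison used 4 of the 16 arrays of the series. These were the 3 arrays labelled Epididymus pnd2 (postnatal day 2, Theiler stage 27) and the single array labelled WholeLitterReference pnd0.5 (postnatal day 0.5, also Theiler stage 27). All samples were wild-type. Each epididymis sample was the pair of organs of 1 CD-1 male (an outbred stock), dissected whole, with every animal from a different dam and no pooling. The pool held RNA of 8 whole newborns, 4 male and 4 female, was supplied from another source as a common standard for arrays, and carries no strain label. The pool therefore differed from the organ samples in age, sex, RNA source and possibly strain as well as in tissue, and these cannot be told apart from the organ itself. The other 12 arrays were epididymides at gestational days 12, 14, 16 and 18 (gd12, gd14, gd16 and gd18), 3 arrays a stage.

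The epididymis is the coiled duct in which sperm mature, and it grows from the Wolffian duct, the duct of the embryonic kidney that androgens preserve in males. Its wall is an epithelium of secreting and absorbing cells wrapped in mesenchyme and smooth muscle. At birth the duct is still elongating and coiling, and most of the proteins that it secretes onto sperm in the adult appear only with sexual maturity.

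The values were array signals, intensities without an absolute unit, compared as log2(signal + 16). Signals near or below 16 are called the floor, since the added constant then outweighs them. A gene was called organ-enriched where each of the 3 epididymis arrays lay at least 2-fold above the pool on that scale, and organ-depleted where each lay at least 2-fold below it. Differences are the mean over the epididymis arrays minus the pool, with the standard deviation (SD) over those arrays (n = 3). This SD leaves out the spread of the pool, which was 1 array, so no p-value was possible for this comparison. In pieces of tissue of this kind, fewer cells of a type and less RNA per cell cannot be told apart.

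Epididymis replicates 1 and 2 correlated at 0.968 over the genes compared, and replicate 3 correlated with them at 0.871 and 0.867. Probe sets at both ends of control transcripts show how far the labelled RNA reached. The ratio of 3' to 5' signal for Gapdh was 63.2 on replicate 3, 4.33 to 7.18 on all 14 remaining epididymis arrays and 2.90 on the pool. For Actb it was 80.7, 2.40 to 4.14 and 2.03. Replicate 3 also had the lowest median signal, 81.2 against 115 and 121 on replicates 1 and 2 and 134 on the pool. The part of this in results on replicate 3 was not tested. Replicate 2 stood apart in another way, with skeletal muscle transcripts that are described below. Both arrays were kept, and counts without them are given where they moved a count by more than 1.5 times.

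Of the 13050 genes compared, 1181 (9.05%) were organ-enriched and 2202 (16.9%) were organ-depleted. With each array centred on its median the counts were 1709 and 1751, so that the enriched share of the calls went from 34.9% to 49.4%. That centring moved the median difference of all genes from -0.09 to 0.23, and differences are read against this offset. Depletion ran deeper than enrichment. On every array, 241 genes were at least 4-fold above the pool and 1151 at least 4-fold below it, and at 64-fold the counts were 1 and 100. The signal on all 3 epididymis arrays was below its array median for 1174 of the 2202 depleted genes, and in the pool it was below the median for 358 of the 1181 enriched genes. Just inside the limit of 2-fold stood Pfkfb2, with signals of 401, 389 and 739 against 186 in the pool, and just outside it Eif1a, with 3095, 2802 and 5396 against 1393.

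**Figure D1:**
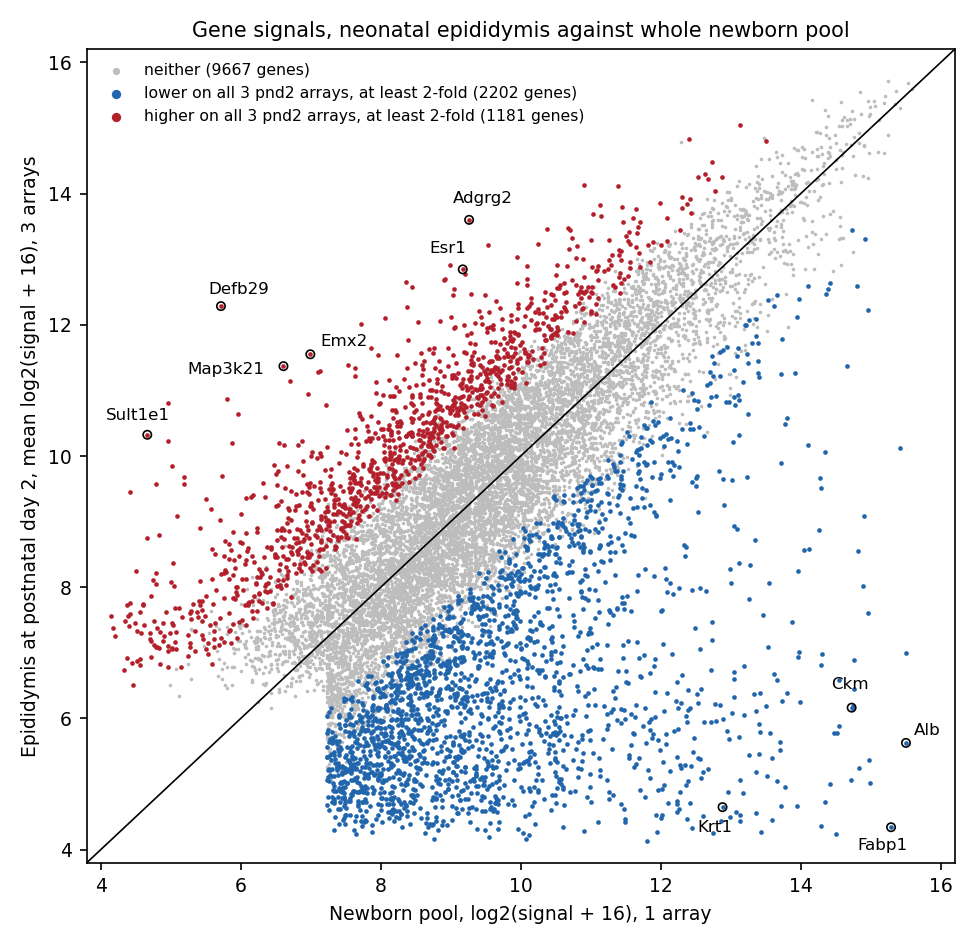
Each point is 1 of the 13050 genes, with log2(signal + 16) in the newborn pool (1 array) on the horizontal axis and the mean over the 3 epididymis arrays on the vertical axis; the line marks equal values. The 2202 depleted genes (blue) reach much farther from the line than the 1181 enriched genes (red).

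The largest excess over the newborn body was that of Defb29, a beta-defensin, a family of small secreted peptides of epithelial defence. Its signal was 3699.9, 4095 and 8120.1 on the epididymis arrays and 36.6 in the pool. All 3 organ values were far above the pool and replicate 3 was the highest. The difference was 6.57 ± 0.61 (SD, n = 3), a 94.8-fold excess, and Defb29 was the gene at least 64-fold above the pool on every array. The pool signal was below the pool's median, and the difference was 7.05 with an added constant of 1 and 5.65 with 64. Emx2, a homeobox factor that the developing urogenital tract needs, gave 2182, 2377 and 5116 against 112 (4.56 ± 0.67). These genes are shown with their promoters because they stand for a late secretory gene and an early duct regulator among the enriched genes. The sequences run from 250 bases before to 50 bases after the transcription start, from RefSeq on GRCm38.p6. Capitals mark CG dinucleotides, 5 in the Defb29 window (chr2:152539992-152540291, minus strand) and 26 in the Emx2 window (chr19:59458440-59458739, plus strand).
Defb29: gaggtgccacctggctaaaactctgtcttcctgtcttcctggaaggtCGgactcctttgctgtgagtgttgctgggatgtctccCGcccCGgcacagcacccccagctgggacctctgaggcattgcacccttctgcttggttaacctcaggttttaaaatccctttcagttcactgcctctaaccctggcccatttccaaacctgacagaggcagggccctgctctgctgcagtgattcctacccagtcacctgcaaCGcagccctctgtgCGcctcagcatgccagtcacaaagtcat
Emx2: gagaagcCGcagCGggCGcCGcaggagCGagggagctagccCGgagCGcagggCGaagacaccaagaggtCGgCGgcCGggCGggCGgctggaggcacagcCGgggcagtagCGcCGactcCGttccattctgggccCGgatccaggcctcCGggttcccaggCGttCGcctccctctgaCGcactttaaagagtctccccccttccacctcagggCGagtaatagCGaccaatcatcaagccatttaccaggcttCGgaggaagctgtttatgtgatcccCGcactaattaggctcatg
The median number of CG pairs in such a window was 20 for enriched genes, 19 for all genes compared and 7 for depleted genes, so the Defb29 window lay below and the Emx2 window above the median of their group.

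Map3k21, a kinase of the mixed-lineage family, came next after Defb29 among the 20 genes named for the largest excess at high signals (at least 2 log2 units above the median of the genes compared), with 2179.8, 2777 and 3008 against 81.7 (4.76 ± 0.24). Dimmer genes such as Sult1e1 and Spink8, described with their families, had larger differences than Map3k21 and are not among the 20. Several of the 20 encode secreted or epithelial proteins. Spink12, a Kazal-type protease inhibitor, gave 1311, 1691 and 5110.1 against 87.9 (4.45 ± 1.04). Wfdc15b, of the family of whey acidic protein inhibitors, gave 1527, 1973 and 5036 against 122 (4.18 ± 0.90), and Pi15, a secreted peptidase inhibitor of the CRISP superfamily, gave 2566, 1903 and 3185 against 125 (4.16 ± 0.37). For Spink12 and Wfdc15b replicate 3 was more than 2-fold above both other arrays. The same held for Emx2, Irs4, Aff3, Col4a5, Cyp1b1 and Cyp7b1 among the 20. Adgrg2, a G protein-coupled adhesion receptor without which the efferent ducts fail to take up fluid, gave 12105, 10815 and 14557 against 599 (4.34 ± 0.22). Its 3 values lay close together, 20.2-fold over the pool.

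The other genes of this group covered signalling, metabolism and matrix. Irs4, an adaptor of the insulin receptor, differed by 4.29 ± 0.73, Aff3, a nuclear protein related to transcription elongation factors, by 4.30 ± 0.96, and Naalad2, a membrane peptidase, by 4.13 ± 0.18. Spin2c, a spindlin-family gene, differed by 4.04 ± 0.24, Rsrp1, an arginine- and serine-rich protein, by 3.90 ± 0.52, and Dcdc2a, a doublecortin-domain protein that binds microtubules, by 3.85 ± 0.39. Among matrix genes, Frem1, a basement membrane protein of developing epithelia, gave 3.79 ± 0.54 and Col4a5, a chain of basement membrane collagen, 3.69 ± 0.76. Cyp1b1, a cytochrome that oxidises steroids and retinoids, was also in this group (3.77 ± 0.76). Hoxc8, Wnt5a, Cyp7b1 and Esr1 complete the 20 and are described with their families.

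**Figure D2:**
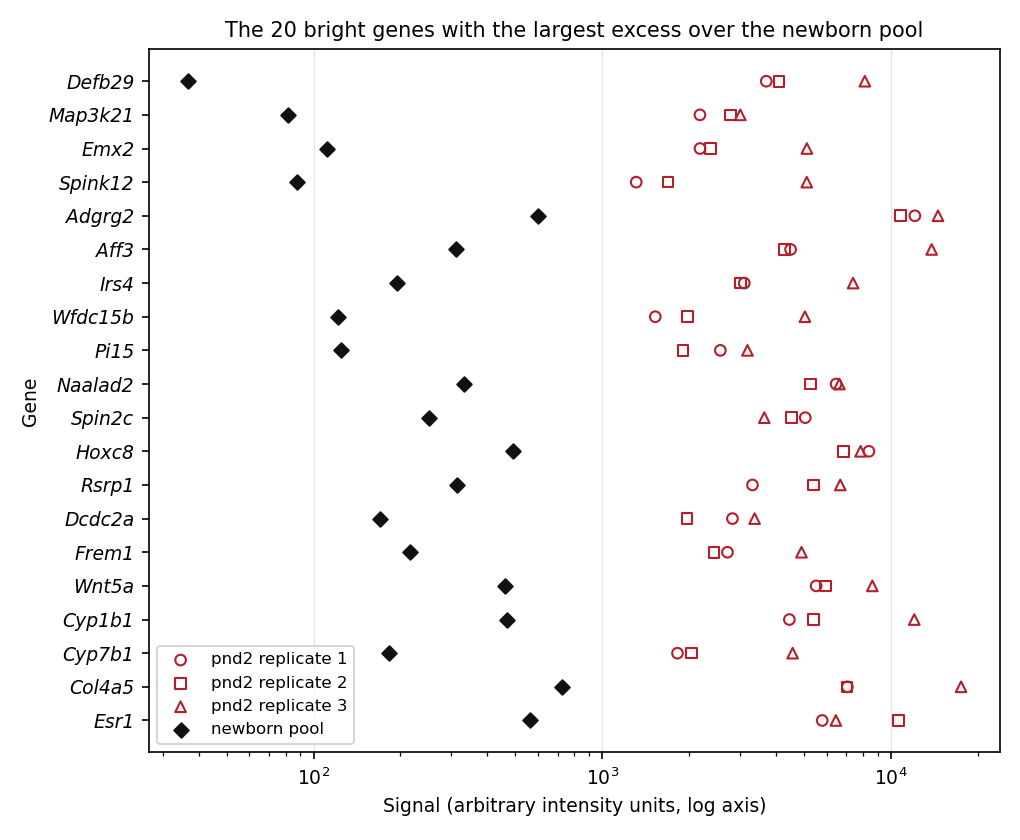
Signal (log axis) of the 20 genes with the largest excess over the newborn pool among bright genes (mean at least 2 log2 units over the median of the genes compared), with open symbols for the 3 epididymis arrays and filled diamonds for the pool. For Defb29 the epididymis arrays read 3700 to 8120 and the pool 36.6; replicate 3 (triangles) is the highest of the 3 arrays for most of these genes.

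Regulators of the Wolffian duct were found on both sides, more of them above the pool. Of 24 listed genes with a probe set of their own, 9 were enriched and 4 depleted, with a median difference of 0.40. Over all 18193 genes with their own probe set, including those under the filter on low signals, the enriched share was 7.13%, the depleted share 14.1% and the median -0.14. Beside Emx2, the enriched members included Lhx1, a homeobox factor of the early duct, with 537, 867 and 1604 against 85.7 (3.19 ± 0.78), and Gata2, a zinc-finger factor of the urogenital mesenchyme and duct, with 4441, 4566 and 3033 against 515 (2.90 ± 0.33). Wnt9b, the duct's own Wnt ligand for the surrounding mesenchyme, gave 373, 314 and 191 and was near the floor of the scale in the pool at 11.7 (3.43 ± 0.47). Cdh16, the kidney-type cadherin of duct epithelium, gave 7396, 8824 and 2729 against 608 (3.18 ± 0.91), with the lowest value on replicate 3. Gdnf, Sim1, Wt1 and Bmp4 were the other enriched members, at 1.82 ± 0.36, 2.29 ± 0.70, 2.63 ± 0.11 and 1.52 ± 0.21.

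The regulators on the other side were genes of the kidney as well as of the duct. Ret, the receptor for Gdnf on the ureteric bud, gave 73.2, 2.11 and 7.16 against 247 (-2.97 ± 1.24). Eya1, Sall1 and Bmp7, which act in the kidney-forming mesenchyme, differed by -1.92 ± 0.29, -1.57 ± 0.42 and -1.37 ± 0.38. With median centring 2 in place of 4 of these regulators were depleted. Gfra1, the co-receptor of Ret, was not called, with 76.8, 191 and 249 against 326. The ligand was thus above and the receptor below its level in the whole newborn on every array.

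Hox genes, which encode position along the body axis, were enriched in both the anterior and the posterior groups. In the groups 1 to 8, 7 of 19 measured genes were enriched (36.8%, against 7.13% of all genes) and 0 depleted (against 14.1%), with a median of 1.22. Hoxc8 gave 8389.8, 6863 and 7850.3 against 491 (3.92 ± 0.15, 15.2-fold). Hoxb3 (3.19 ± 0.37), Hoxc5 (3.04 ± 0.56), Hoxd3 (2.15 ± 0.43), Hoxa3, Hoxb6 and Hoxb5 were the others. In the groups 9 to 13, 1 of 14 was depleted (7.14%) and 5 were enriched (35.7%). These were Hoxd10 (3.26 ± 0.51), Hoxa9 (3.00 ± 0.36), Hoxc10 (1.94 ± 0.25), Hoxa10 (1.92 ± 0.74) and Hoxc9 (1.67 ± 0.092). Hoxa9 gave 8667, 8103 and 12815 against 1194, and Hoxd10 675, 558 and 1125 against 63.98. Of the posterior genes, 6 (Hoxa13, Hoxb9, Hoxb13, Hoxc13, Hoxd11 and Hoxd12) were below the median on all 4 arrays, so that the pattern in the last groups is poorly measured. Hoxd11 (20.6, 39.9 and 8.17 against 60.98), Hoxd12, Hoxd13 and Hoxb13 each lay below the pool on average and were not called, and Hoxc13, known from hair and nail, was depleted (-2.50 ± 0.15). Without replicate 2, 3 of the 14 posterior genes were depleted, and without replicate 3, 2 were depleted and 7 enriched. Hoxa11 and Hoxd9 were higher on replicates 1 and 2 but not on replicate 3, where Hoxd9 read 262 against 2328 and 2201.

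Transcription factors of urogenital mesenchyme gave 6 enriched and 4 depleted of 26. Tcf21, a factor of mesenchyme around visceral epithelia, gave 5429, 5988 and 6483 against 514 (3.49 ± 0.13). Meis1 and Meis2, partners of Hox proteins, differed by 2.43 ± 0.075 and 1.96 ± 0.20, and the T-box factors Tbx3 and Tbx2 by 2.13 ± 0.34 and 1.92 ± 0.65. Nfia was enriched by a smaller amount (1.06 ± 0.022). The depleted share of 4 in 26 was 15.4%, near the 14.1% of all genes. Tbx15, of limb and skin, gave 48.03, 82.5 and 8.00 against 1356 (-4.69 ± 1.04), and Six2 (kidney), Isl1 (heart and motor neurons) and Foxf1 (gut and lung) differed by -2.21 ± 0.17, -2.04 ± 0.40 and -1.97 ± 0.40. General mesenchymal factors such as Prrx1 (2695, 2224 and 2505 against 2504) sat at the level of the whole body.

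A few genes of steroid response and inactivation were far above the pool. Of 17 measured genes 4 were enriched (23.5%, against 7.13% of all genes) and 2 depleted (11.8%, against 14.1%). Sult1e1, the sulfotransferase that inactivates estrogens, gave 895, 1016 and 2224, with the pool at 9.38, below the added constant of 16, so that its difference of 5.66 ± 0.70 depends on that constant. Esr1, estrogen receptor alpha, gave 5779.6, 10618 and 6444 against 561 (3.67 ± 0.47, 12.8-fold). Cyp7b1, which hydroxylates oxysterols and androgen metabolites, gave 1822, 2042 and 4566 against 182 (3.71 ± 0.72), and Greb1, an estrogen-responsive gene, 512, 513 and 1099 against 56.2 (3.23 ± 0.62). All of these values in the organ were far from the pool on every array. Pgr, the progesterone receptor, was higher on each array (317, 316 and 1072 against 151) but on replicates 1 and 2 it stayed just short of 2-fold. The glucocorticoid receptor Nr3c1 differed by 0.31 ± 0.40. Hsd3b1 and Hsd11b1, enzymes of steroid synthesis and cortisone reactivation, were depleted (-3.62 ± 0.18 and -3.40 ± 1.01). Without replicate 3, 5 of the 17 were depleted in place of 2.

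The secreted proteins of the epididymis split into a few genes far above the pool and many that were low in both. Of 35 measured, 5 were enriched (14.3%, against 7.13% of all genes) and 6 depleted (17.1%, against 14.1%). Of the same 35, 15 lay below the array median on all 3 epididymis arrays and in the pool. Beside Defb29 and Wfdc15b, Spink8, a Kazal-type inhibitor, gave 378, 526 and 2065 against 11.6 (4.79 ± 1.27, or 5.89 and 3.44 with constants of 1 and 64), Penk, the enkephalin precursor, 6802, 8342 and 4184 against 1754 (1.81 ± 0.51), and Defb19, another defensin, 138, 251 and 129 against 49.1 (1.48 ± 0.48). Replicate 3 was the highest for Spink8 and the lowest for Penk. The low group included genes known as markers of the adult duct. The lipocalin Lcn5 read 5.88, 12.3 and 3.01 against 6.33, Lcn8 38.5, 43.1 and 53.8 against 74.6, the metalloprotease-like Adam7 2.32, 24.8 and 40.7 against 21.8, and the glutathione peroxidase Gpx5 64.6, 83.8 and 19.7 against 55.98. Lcn8 was a little below the pool on every array, and for the other 3 the organ and the pool overlapped. These markers of the adult organ were thus below the middle of every array in the samples labelled epididymis at this age. Clu, Npc2 and Cst3, abundant in adult epididymal fluid, were at the level of the whole newborn (-0.038 ± 0.26, 0.36 ± 0.075 and -0.47 ± 0.16). Slpi, a protease inhibitor of mucosal surfaces (-3.98 ± 0.60), and Gpx3 (-2.85 ± 0.58) were the deepest of the depleted members.

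Genes of luminal transport were mostly below the whole newborn pool, which also holds kidney, gut, lung and salivary gland. The part of those organs in the difference was not tested. Of 33 measured, 16 were depleted (48.5%, against 14.1% of all genes) and 1, Adgrg2, was enriched (3.03%, against 7.13%), with a median of -1.26. The water channel Aqp1 gave 219.6, 331 and 79.1 against 4077 (-4.37 ± 0.96), Aqp9, the main channel of the adult duct, 22.2, 147 and 143 against 1409.9 (-3.84 ± 1.20), and the carbonic anhydrase Car2 173, 332 and 275 against 4472 (-4.07 ± 0.45). Subunits of the proton pump that acidifies the adult lumen, Atp6v0d2 and Atp6v1b1, were at 57.8, 1.20 and 7.23 and at 4.82, 19.4 and 31.96, below their array medians. The chloride channel Cftr was close to the pool (138, 102 and 203 against 168), as was the cotransporter Slc12a2 (0.18 ± 0.35).

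Epithelial genes did not move as a block, with 3 of 41 enriched, 9 depleted and a median of -0.32. The enriched share of 7.32% was near the 7.13% of all genes, and the depleted share was 21.95% against 14.1%. The enriched genes were Ehf, an epithelial ETS factor (1489, 1435 and 2469 against 133, 3.56 ± 0.43), the claudin Cldn8 (3375, 3874 and 5629 against 355, 3.50 ± 0.38) and the apical membrane protein Prom1 (2.02 ± 0.17). The 5 keratins of the list differed among themselves. Krt8, Krt18 and Krt7, of simple epithelia, were not called (-0.45 ± 0.20, 0.25 ± 0.53 and 0.94 ± 0.91), whereas Krt19 and Krt23 were depleted (-2.12 ± 1.20 and -4.09 ± 0.51). Factors and proteins of stratified or glandular epithelia were depleted, among them Grhl1 (-3.32 ± 0.59), Grhl3 (-2.56 ± 0.67), Ovol1 (-3.19 ± 0.66), Elf5 (-3.12 ± 0.57) and the mucin Muc1 (-3.64 ± 0.090). Without replicate 3, 6 of the 41 were enriched in place of 3, and 5 with median centring. On replicate 3 Cldn7, for example, read 155 against 2174 and 1626.

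Smooth muscle genes lay on both sides of the pool. Of 26 smooth muscle genes 4 were enriched (15.4%, against 7.13% of all genes) and 6 depleted (23.1%, against 14.1%), with quartiles of -1.33 and 0.87. Without replicate 3 or with median centring 6 were enriched. Acta2, smooth muscle actin, gave 38629, 40144 and 39464 against 20903 (0.91 ± 0.028), just short of the call. Myocd, the cofactor that switches on smooth muscle genes, gave 1790.05, 1674 and 794 against 167 (2.88 ± 0.64), and Itga8, Mrvi1 and Mylk differed by 2.21 ± 0.25, 1.87 ± 0.098 and 1.47 ± 0.11. Depleted were Actg2, the actin of gut smooth muscle (366, 565 and 568 against 3008, -2.58 ± 0.35), and genes that other muscle also uses, such as Tpm1 (-4.30 ± 1.89) and Des (-3.62 ± 2.26). Tpm1 and Des read much lower on replicate 3 than on the others, with Des at 11.4 against 342 and 451.

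Of 52 matrix genes, 6 were enriched (11.5%, against 7.13% of all genes) and 2 depleted (3.85%, against 14.1%), with a median of 0.47. Smoc2 (6745, 7756 and 4909 against 966, 2.70 ± 0.34), a matricellular protein, Ogn (9914, 10801 and 19978 against 2259, 2.50 ± 0.55), a small proteoglycan, and Lama2 (2.05 ± 0.18), a laminin chain around muscle, led the list, before Igfbp7, Mfap4 and Fbn2. The fibrillar collagens were at the level of a body rich in skin and bone, with Col1a2 at 0.20 ± 0.12 and Col3a1 at 0.47 ± 0.039. Prelp (-2.43 ± 0.18) and Col8a1 (-2.11 ± 0.23) were depleted. Without replicate 3, 10 of the 52 were enriched in place of 6.

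Secreted signals of the Wnt family act between duct and mesenchyme, through Frizzled receptors and with Rspo proteins as amplifiers. Of 39 genes of the pathway, 10 were enriched (25.6%, against 7.13% of all genes) and 4 depleted (10.3%, against 14.1%). Among the ligands, Wnt5a gave 5507, 5934 and 8622 against 462 (3.78 ± 0.35, 13.7-fold) and Wnt9b was described above. Wnt5b was called from a probe set that may match related transcripts (2.30 ± 0.41), and it stood at -0.046 without such probe sets. Of the amplifiers, Rspo3 gave 2822, 2700.3 and 5437 against 321 (3.37 ± 0.56) and Rspo1 1.33 ± 0.20, whereas Rspo2 and the ligand Wnt2, both of the lung bud, were depleted (-1.85 ± 0.41 and -2.43 ± 1.02). The receptors Fzd2 and Fzd6 were at 1.90 ± 0.19 and 1.50 ± 0.30. The targets and feedback inhibitors Axin2 (1372, 1653 and 758 against 359.9, 1.69 ± 0.58) and Nkd1 (1.56 ± 0.18) were enriched. Of the secreted inhibitors, Sfrp1 was enriched (2712, 2771 and 4213 against 396, 2.95 ± 0.36) and Wif1 and Frzb, of cartilage, were depleted (-4.87 ± 0.68 and -2.13 ± 0.33).

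In the TGF-beta, BMP and activin pathway, 6 of 37 genes were enriched and 4 depleted. The enriched share was above the 7.13% of all genes, and the depleted share was below their 14.1%. The ligand subunit Inhba, which forms activin A and drives coiling of the duct, gave 5430.5, 5130.5 and 3131 against 496 (3.12 ± 0.43). The ligands Bmp4 and Gdf10 were at 1.52 ± 0.21 and 1.71 ± 0.17, and the receptor Bmpr1b gave 1507, 1476 and 1081 against 182 (2.78 ± 0.27). Of the binding proteins, Chrdl1 (1.75 ± 0.28) and Ltbp1 (1.38 ± 0.40) were enriched and Fst, the activin antagonist, was depleted (385, 581 and 230.4 against 1279, -1.73 ± 0.64). Grem1, Bmp2 and Bmp7 were depleted too, at -2.08 ± 0.66, -2.23 ± 0.67 and -1.37 ± 0.38. Amh and Nog were near the floor of the scale on all 4 arrays. With median centring 2 of these genes in place of 4 were depleted.

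Imprinted growth genes, which are expressed from 1 parental copy in many fetal tissues, gave 1 enriched and 2 depleted of 19. These shares of 5.26% and 10.5% stood beside 7.13% and 14.1% of all genes. Igf2 was below the pool on every array (13248, 13247 and 1313 against 28494, -2.21 ± 1.92), with replicate 3 lowest, and Nnat differed by -2.54 ± 0.46. Meg3 was enriched by its brightest probe set (13249, 19472 and 32110.2 against 6306, 1.68 ± 0.64), while the mean of its probe sets gave -0.13. Dlk1, Grb10, Peg3 and Cdkn1c were not called. The enriched count was 5 with median centring, 2 without replicate 2 and 3 without replicate 3, and the depleted count 1 with median centring.

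Genes of cell division lay mostly above the pool. Of 47 measured, 17 were enriched (36.2%, against 7.13% of all genes) and 0 depleted (against 14.1%), and the median difference was 1.07. Cenpf, a kinetochore protein, gave 5173, 3660.3 and 6068 against 816 (2.55 ± 0.37), Bub1, a checkpoint kinase, 1445, 1277 and 3051 against 331 (2.37 ± 0.67), Top2a, which untangles replicated DNA, 5510.01, 5271 and 6370.3 against 1562 (1.86 ± 0.14), and the proliferation marker Mki67 11607, 7471 and 14429 against 3223 (1.74 ± 0.48). The 3 organ values were above the pool for each of these. Cdc20 was called from a probe set that may match related transcripts (1.31 ± 0.16), and it stood at -0.30 without such probe sets. The replication helicase subunits Mcm2 to Mcm7 were nearer the pool, from 0.082 ± 0.19 for Mcm3 to 1.16 ± 0.47 for Mcm4, and none was called.

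**Figure D3:**
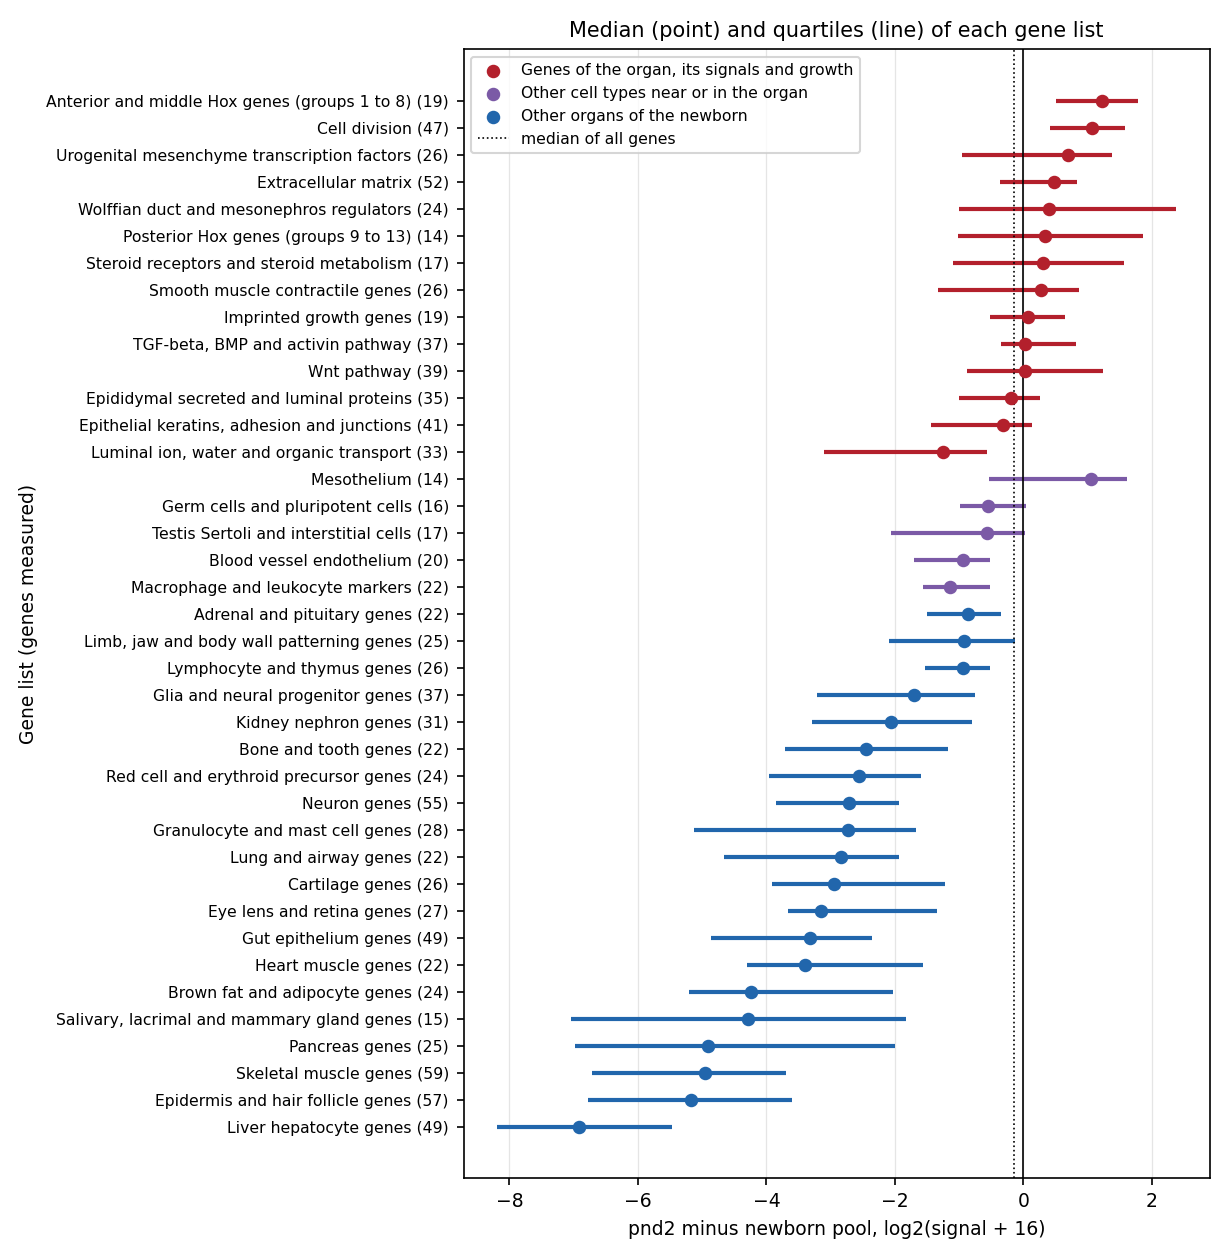
Median (point) and quartiles (line) of the difference in log2(signal + 16), epididymis minus newborn pool, for each gene list, with the number of genes measured in parentheses. Medians of the lists for the organ and its growth (red) run from -1.26 to 1.22, those of other cell types are purple, and those of other organs (blue) reach -6.91 for liver; the dotted line is the median of all genes, -0.14.

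Other cell types of the organ or its surroundings were checked by their markers. Mesothelium, the outer lining that also covers the gonad, gave 5 enriched and 2 depleted of 14, among them Wt1 (628, 732 and 655 against 94.7), Aldh1a2 (4306, 4648 and 4621 against 916, 2.28 ± 0.061), a retinoic acid synthase that mesenchyme shares, and Ildr2 (3.04 ± 0.90). The mesothelial shares were 35.7% enriched, against 7.13% of all genes, and 14.3% depleted, near the 14.1% of all genes. Without replicate 3, 8 of the 14 were enriched. The mesothelial marker Msln was not above the pool (307, 417 and 123 against 430.3). Macrophage genes gave 0 enriched and 5 depleted of 22 (22.7%, against 14.1% of all genes), and 8 were depleted without replicate 3. Csf1r, the receptor for their growth factor, read 4358, 5673 and 6178 against 16097 (-1.59 ± 0.26). Endothelial genes gave 0 and 5 of 20, with Cldn5 at -2.58 ± 0.73 and Kdr at -0.35 ± 0.97.

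Markers of the testis next to the epididymis gave 0 enriched and 5 depleted of 17 (29.4%, against 14.1% of all genes). The defining markers Amh (5.72, 6.12 and 4.38), Cyp17a1 (28.4, 9.27 and 7.53) and Dmrt1 (16.3, 18.2 and 9.15) were at or near the floor on the epididymis arrays. They were among 8 of the 17 testis genes below the array median on all 4 arrays, the pool included. Their low values in the organ therefore cannot show whether testis cells were present. Germ cell genes gave 1 enriched and 2 depleted of 16, shares of 6.25% and 12.5% against 7.13% and 14.1% of all genes. Of these genes 6 were depleted without replicate 2 and 1 with median centring. Ddx4 and Dazl, which define germ cells, read 35.3, 3.39 and 18.5 and 39.5, 2.11 and 32.2. They were among 11 of the 16 germ cell genes below the array median on all 4 arrays, so germ cells are poorly measured here. The enriched gene was Piwil2 (72.8, 114 and 65.6 against 10.2), whose signals were below the array median throughout. The summed signal of the testis list was 1865 to 2026 on the epididymis arrays and 5643 in the pool, and that of the germ cell list 541 to 758 and 2161.

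Transcripts of the sex chromosomes differed between the male organ and the pool of both sexes. Xist, the RNA of the inactive X chromosome of female cells, gave 161, 109 and 92.05 in the organ against 6047 in the pool (-5.50 ± 0.36). The Y-linked genes Eif2s3y and Uty were enriched (2.34 ± 0.64 and 1.16 ± 0.081), 2 of 5 measured. Of 423 genes on the X chromosome, 16.1% were enriched and 10.9% depleted, with a median of 0.39, against 9.05% and 16.9% over all genes. On the 19 autosomes the enriched share ran from 5.72% to 13.3%. Adgrg2, Irs4, Spin2c and Col4a5, of the 20 bright genes named for their excess, are X-linked, as are 3.24% of all genes compared. Sex was not varied within the organ samples, so its part in these values cannot be told apart from the organ.

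The genes that the organ lacked came from nearly every other organ of the newborn. Of 20 lists of other organs and blood cells, 16 had over 50% of their measured genes depleted, and 17 had so without replicate 2 or without replicate 3. Liver was the deepest, with all 49 measured hepatocyte genes depleted and a median of -6.91, against 14.1% of all genes. Fabp1, the fatty acid binding protein of liver and gut, gave 9.63, 1.85 and 2.27 against 40058 (-10.95 ± 0.29). Fgb, a fibrinogen chain, gave 2.69, 4.10 and 1.91 against 23222 (-10.27 ± 0.084), and Alb, serum albumin, 88.8, 15.6 and 20.5 against 46413 (-9.87 ± 0.94). These epididymis signals were mostly at the floor, so the size of these folds depends on the added constant. Apoa1, Kng1, Fgg, Ahsg, Ttr, Afp, Fga, Hp, Serpina1c, Cyp4a14 and Bhmt, which encode plasma proteins and liver enzymes, filled most of the remaining places among the 20 deepest, from -9.97 ± 0.79 for Apoa1 to -8.65 ± 0.59 for Bhmt.

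Promoters of the deepest group and of muscle genes were searched for short motifs on both strands, since the genes of each list lay far below the pool together. The window was again 300 bases around the start. TATAAA, the TATA box, was in 32.5% of 40 windows of the hepatocyte genes and in 13.6% of all RefSeq windows, and other depleted lists had 26.7% (pancreas), 26.2% (skin), 23.9% (skeletal muscle) and 15.1% (neurons). CAGCTG, an E-box bound by muscle factors, was in 52.2% of 46 windows of skeletal muscle genes and in 16.3% of all windows. The depleted genes as a whole held TATAAA in 16.6% of windows and the enriched genes in 7.42%, against 8.75% for all genes compared. The gene with the deepest depletion and 1 muscle gene are shown, with the match in capitals: TATAAA in Fabp1 (chr6:71199629-71199928, plus strand) and CAGCTG in Ckm (chr7:19410844-19411143, plus strand). A match is a description of the letters and not of a bound site.
Fabp1: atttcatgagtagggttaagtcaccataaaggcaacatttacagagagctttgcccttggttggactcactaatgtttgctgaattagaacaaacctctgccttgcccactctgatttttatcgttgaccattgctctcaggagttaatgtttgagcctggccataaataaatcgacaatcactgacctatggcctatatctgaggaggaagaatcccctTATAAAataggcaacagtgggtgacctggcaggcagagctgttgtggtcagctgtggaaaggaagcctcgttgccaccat
Ckm: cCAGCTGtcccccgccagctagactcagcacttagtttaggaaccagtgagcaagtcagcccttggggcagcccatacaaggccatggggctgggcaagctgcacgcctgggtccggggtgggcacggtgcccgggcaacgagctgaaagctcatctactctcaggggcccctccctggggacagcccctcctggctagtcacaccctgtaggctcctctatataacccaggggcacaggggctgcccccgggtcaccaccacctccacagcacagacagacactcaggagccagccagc
The match begins 30 bases before the start in Fabp1 and 249 bases before it in Ckm.

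Epithelia of the gut, pancreas, glands, lung and kidney followed with smaller medians than liver, -3.31, -4.91, -4.28, -2.83 and -2.06. Of 49 gut genes 43 were depleted, led by Fabp1, Apoa4 (-9.41 ± 0.38) and Fabp2 (-9.06 ± 0.79). The 1 enriched gene of that list was Enpep, aminopeptidase A, at 12205, 12129 and 12159 against 2811 (2.11 ± 0.005). Of 25 pancreas genes 19 were depleted, with the digestive enzyme Ctrb1 at 9.12, 16.8 and 3.87 against 15820.5 (-9.29 ± 0.36). Of 15 genes of salivary, lacrimal and mammary glands 11 were depleted, with Bpifa2 at -8.70 ± 0.23 and Dcpp1 at -8.70 ± 0.19. Lung genes gave 17 of 22, with the surfactant protein Sftpc at 90.5, 45.1 and 43.5 against 27379 (-8.55 ± 0.47). Kidney genes gave 19 of 31, with the water channel Aqp3 at -4.37 ± 0.42.

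Skin was depleted in 55 of 57 genes, with a median of -5.17. Krt1, a keratin of the upper epidermis, gave 9.92, 8.81 and 8.56 against 7537 (-8.23 ± 0.041), and Lce1f, of the cornified envelope, 15.6, 4.47 and 4.47 against 10485 (-8.79 ± 0.36). Aloxe3 and Gata3 were the members not called (-0.79 ± 0.28 and 0.30 ± 0.40). Cartilage gave 19 of 26 depleted, with Col2a1 at -7.09 ± 0.58, and bone and tooth 14 of 22, with Ibsp at -7.71 ± 0.58. Brown fat gave 20 of 24, with the uncoupling protein Ucp1 at 22.3, 17.9 and 11.8 against 12910.2 (-8.61 ± 0.23). Some fat genes stayed measurable in the organ, with Fabp4 at 265, 254 and 736 against 17751.

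Neuron, eye and glia genes were depleted to different extents. Of 55 neuron genes 45 were depleted, with Stmn3 at 76.2, 67.6 and 8.68 against 4828 (-6.40 ± 1.06) and Gap43, of growing axons, at 61.1, 119 and 22.2 against 2120.01 (-4.86 ± 0.91). Gad1, which makes the transmitter GABA, was not (571, 529.8 and 1748 against 525). Glia and progenitor genes gave 17 of 37, with Sox2 at -4.90 ± 0.86 and Fabp7 at -3.77 ± 0.93, while the myelin gene Pmp22, which other tissues use too, was at 0.71 ± 0.50. Lens and retina gave 18 of 27, with the crystallin Cryba1 at 11.5, 10.3 and 27.8 against 5225 (-7.37 ± 0.41).

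Blood cells were depleted unequally. Of 24 red cell genes 19 were depleted, with the anion exchanger Slc4a1 at 6.40, 30.6 and 55.7 against 5889.8 (-7.13 ± 0.85) and the heme enzyme Alas2 at 205, 85.3 and 6.95 against 8407 (-6.72 ± 1.66). Hbb-b2 was depleted by its brightest probe set (-5.61 ± 0.27), but the probe set left when those that may match related transcripts were set aside gave 0.94. Granulocyte genes gave 22 of 28, with Ngp at -6.45 ± 0.73. Lymphocyte genes gave 6 of 26 (23.1%, against 14.1% of all genes), or 3 with median centring, and 19 of the 26 were below the array median on all 4 arrays. Rag1, which recombines antigen receptor genes in the thymus, was the deepest (2.54, 2.91 and 6.66 against 801, -5.36 ± 0.16). Adrenal and pituitary genes gave 5 of 22 (22.7%) and limb, jaw and body wall genes 11 of 25 (44.0%), with 13 and 12 genes below the array median on all 4 arrays.

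Muscle was depleted on every array but not equally. Of 59 skeletal muscle genes 53 were depleted, with a median of -4.96. Ckm, muscle creatine kinase, gave 27.03, 195 and 24.7 against 27110.3 (-8.56 ± 1.35), Acta1, skeletal actin, 34.2, 1991 and 4.49 against 46644 (-8.52 ± 3.50), and Myl1, a myosin light chain, 7.32, 596 and 30.4 against 27636 (-8.31 ± 2.48). The newborn myosin Myh8 gave 24.4, 779.95 and 35.8 against 27619.8 (-7.87 ± 2.39). Replicate 2 stood far above the other organ arrays for these genes and far below the pool. It was the highest of the 3 for 50 of the 59 genes and at least 2-fold above both others for 32. The summed signal of the list was 5197, 24842 and 4919 on the 3 arrays and 437638 in the pool. Heart genes, many of which skeletal muscle of newborns also uses, gave 17 of 22 depleted, and replicate 2 was the highest for 15 of the 22. Actc1, for example, read 107, 4515 and 78.1 against 28734. Without replicate 2, 55 of the 59 skeletal muscle genes were depleted. The part of muscle RNA on replicate 2 in other results was not tested.

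**Figure D4:**
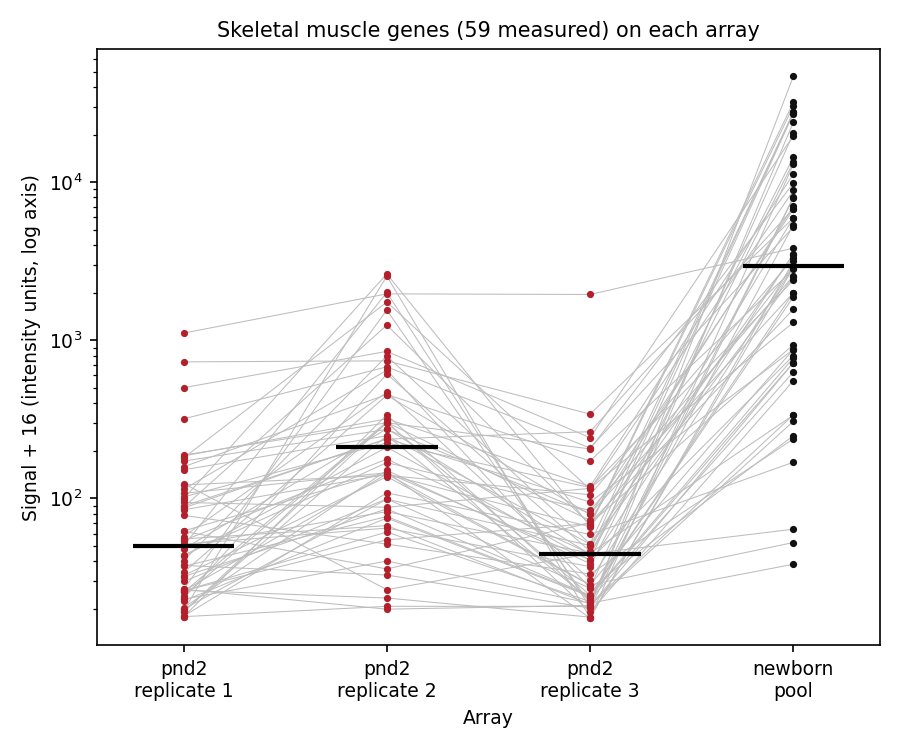
Signal + 16 (log axis) of the 59 measured skeletal muscle genes on the 3 epididymis arrays and in the newborn pool; each point is a gene, grey lines join a gene's values and bars are medians. Replicate 2 is the highest of the epididymis arrays for 50 of the 59 genes, and the median of the pool lies above all 3.

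Sets of genes used by many cell types differed from each other. Of 19 ribosomal protein genes 1 was enriched (5.26%, near the 7.13% of all genes) and 0 depleted (against 14.1%), with a median of 0.39. Oxidative phosphorylation genes, which muscle, heart and brown fat use heavily, gave 8 of 32 depleted and 1 enriched, with a median of -0.90, and 3 were depleted with median centring. Cyc1, of respiratory complex III, gave 7648, 7166 and 3295 against 21059 (-1.89 ± 0.67), and Sdhb, of complex II, -1.53 ± 0.083. Of 26 immediate early and stress genes 9 were depleted (34.6%, against 14.1% of all genes) and 0 enriched, with Fos at 362, 396 and 394 against 2772 (-2.80 ± 0.071). With median centring 5 of these were depleted. The labels say that the organs were snap frozen and say nothing of the pool, so handling cannot be told apart from the organ here.

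A test was possible on the 12 fetal arrays, which entered neither side of the comparison. Between gd12 and gd18 in the fetal epididymis, limma called 2473 of the 13050 genes higher (19%) and 2332 lower (17.9%) at an adjusted p under 0.05 (Benjamini-Hochberg over all genes). Of the 1181 organ-enriched genes, 418 rose (35.4%) and 167 fell (14.1%). These counts are a description and not support, since a choice of genes that are high at pnd2 favours genes that rise towards birth. Of the 1181 enriched genes, 358 passed the filter through the pnd2 arrays alone, against 962 of all 13050 genes. Of the 2202 depleted genes 212 rose (9.63%) and 306 fell (13.9%). Among the 20 bright genes named for their excess, Defb29, Map3k21, Emx2, Spink12, Wfdc15b and Pi15 passed the filter through the pnd2 arrays alone. With the same limit, 17 of the 20 rose and 0 fell. Sult1e1 and Spink8, dimmer and with a larger excess than most of these, rose as well (4.14 ± 0.63 and 2.28 ± 0.39, adjusted p = 0.00015 and 0.000377, limma). Of the 20 deepest depleted genes 0 rose and 1 fell.

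Defb29 showed the course of a gene that starts low. Its signals were 85.3, 33.7 and 3.44 at gd12, 55.9, 71.2 and 15.97 at gd14, 129, 115 and 72.98 at gd16 and 585, 1110.5 and 868 at gd18, a change of 4.19 ± 0.52 (SE, adjusted p = 2.61e-05, limma) between the ends. At gd12 and gd14 the fetal organ overlapped the pool at 36.6, at gd18 it lay above it on all arrays, and the pnd2 arrays were higher again. Adgrg2 rose by 5.84 ± 0.61 (adjusted p = 5.69e-06, limma), Irs4 by 4.21 ± 0.27 (adjusted p = 5.36e-08) and Pi15 by 3.60 ± 0.24 (adjusted p = 9.58e-08). Esr1 gave 560.1, 208 and 547 at gd12, 4769.8, 4169 and 5001 at gd14, 7188, 8139 and 6409.6 at gd16 and 8429, 6229.7 and 8502 at gd18, so most of its rise of 4.20 ± 0.27 (adjusted p = 5.45e-08, limma) came before gd14. Naalad2 had the smallest adjusted p of the 20 (4.02e-10, limma), with a rise of 2.79 ± 0.10.

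Other enriched genes were high in the duct from the first stage. Emx2 gave 2256, 1375 and 1660.3 at gd12, 1582, 1582 and 1455 at gd14, 1431, 1604 and 1409 at gd16 and 1424, 1733 and 1574 at gd18, a difference of -0.14 ± 0.15 between gd18 and gd12 that did not pass the test (adjusted p = 0.53, limma). The 12 fetal values lay between 1375 and 2256, all far above the pool at 112. Cyp1b1 (0.21 ± 0.098, adjusted p = 0.118, limma) and Rsrp1 (0.27 ± 0.11, adjusted p = 0.071, limma) did not pass either. Map3k21 rose by 0.83 ± 0.26 (adjusted p = 0.0203, limma), a call that was lost without gd12 replicate 13 (0.084) or gd18 replicate 5 (0.093). Spin2c rose by 0.48 ± 0.13 (adjusted p = 0.0106, limma), which was lost with median centring (0.058) and in the fit to all 15 epididymis arrays (0.056).

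**Figure D5:**
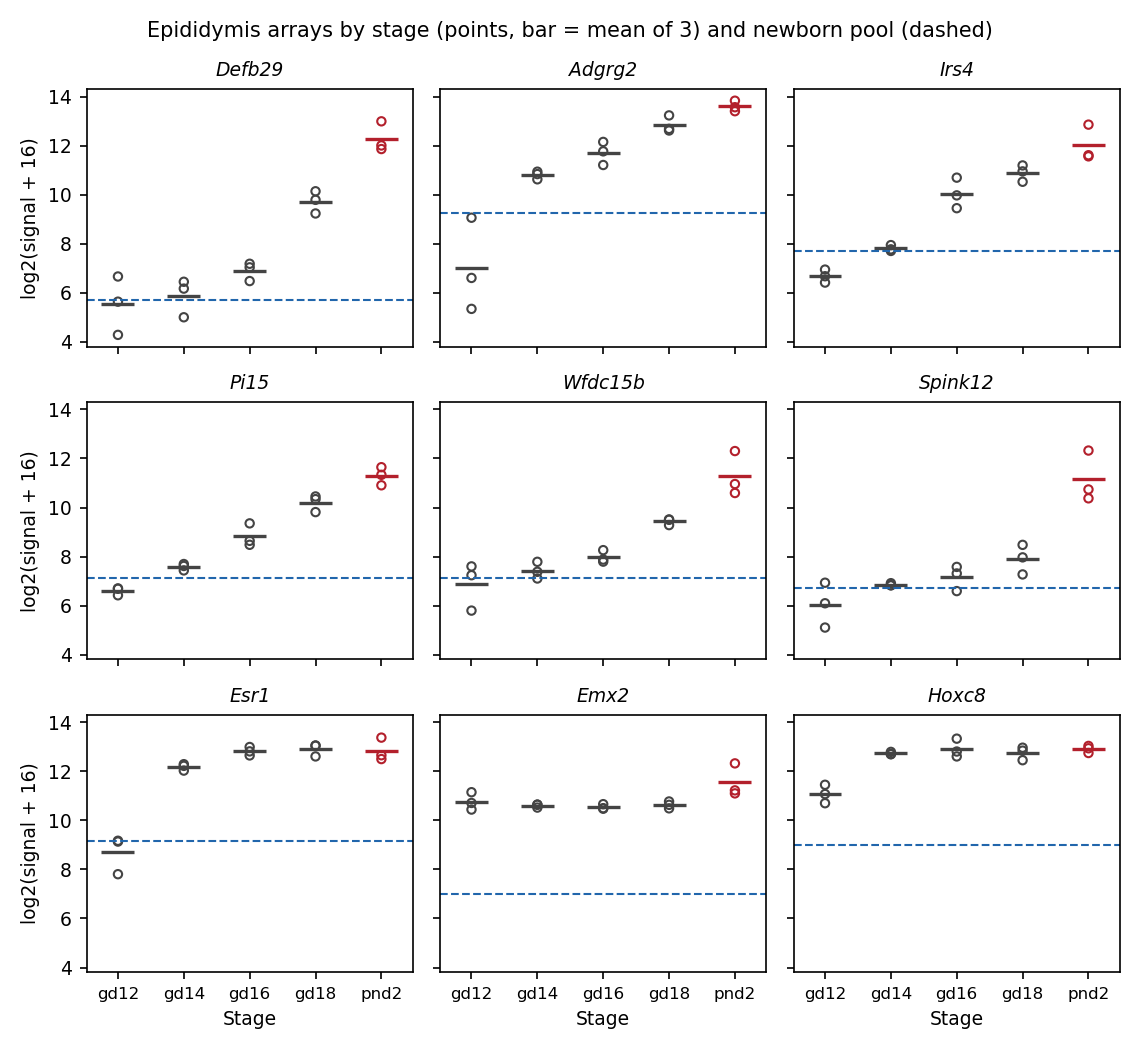
Signals on the log2(signal + 16) scale of 9 organ-enriched genes by stage (gd12 to gd18 in grey, pnd2 in red; 3 arrays a stage, bar at the mean), with the newborn pool as a dashed line. For Defb29, Adgrg2, Irs4, Pi15, Wfdc15b and Spink12 at least 1 gd12 array is at or below the pool and all gd18 arrays are above it, whereas Emx2 and Hoxc8 lie above it at every stage.

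The functional groups differed in their fetal course. Of the 17 enriched cell division genes 11 fell between gd12 and gd18 and 0 rose, and of all 47 measured 31 fell and 2 rose, so that a group above the newborn body contained many genes in decline before birth. Top2a, for example, changed by -0.52 ± 0.094 (adjusted p = 0.000595, limma). The 6 enriched matrix genes all rose, as did 45 of the 52 measured, with Ogn changing by 6.92 ± 0.32 (adjusted p = 2.87e-09, limma). All 6 enriched genes of the TGF-beta pathway rose too, with Inhba at 4.08 ± 0.43 (adjusted p = 5.77e-06, limma), and 8 of the 10 enriched Wnt pathway genes, with Rspo3 at 3.54 ± 0.31 (adjusted p = 1.1e-06, limma). Counted whatever their call, the members of these pathways were less uniform. Of 32 TGF-beta pathway genes tested 15 rose and 7 fell, and of 36 Wnt pathway genes 18 rose and 5 fell. The Wolffian duct regulators were mixed. Of the 9 enriched, 3 rose and 2 fell, the latter being Gdnf (-1.52 ± 0.34, adjusted p = 0.0026, limma) and Wt1 (-1.07 ± 0.14, adjusted p = 4.04e-05, limma). Of all 23 tested, 5 rose and 7 fell. Markers of the gonad fell over the same stages. Of the 9 testis genes tested 7 fell and 0 rose (median -2.04), and all 3 germ cell genes tested fell (median -6.08). The part of gonad RNA on the gd12 arrays in the fetal changes was not tested.

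Among steroid genes Sult1e1 rose by 4.14 ± 0.63 (adjusted p = 0.00015, limma) and Cyp7b1 by 3.20 ± 0.16 (adjusted p = 5.95e-09, limma). Greb1 did not pass (0.43 ± 0.27, adjusted p = 0.241, limma). Of the 3 enriched epithelial genes all rose, Ehf by 4.99 ± 0.26 (adjusted p = 8.15e-09, limma), and of all 39 tested 21 rose and 3 fell. Some depleted genes rose as well while they stayed below the pool at pnd2, such as the matrix gene Col8a1 (4.14 ± 0.23, adjusted p = 1.19e-08, limma) and Aqp1 (2.17 ± 0.28, adjusted p = 3.68e-05, limma). Of the 5 depleted macrophage genes 3 rose (Csf1r, F13a1 and Lyz2), and of all 20 macrophage genes that passed the filter on low signals 16 rose and 0 fell. Of the 49 hepatocyte genes 46 passed the test in neither direction, 2 rose and 1 fell.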

How the data were processed

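Per the labels' protocols, RNA was amplified in 2 rounds and labelled with biotin. The authors deposited 1 intensity (signal) per probe set and array, made with GCOS per the submitters' processing notes. On the algorithm and on detection calls the sources used here are silent. The trimmed mean of every array was 500, so the arrays share 1 scale by that measure. Their medians still ran from 81.2 (pnd2 replicate 3) to 134 (pool), a difference in the spread of signals that such scaling leaves in place. Of 45101 probe sets 64 were controls, 34945 had 1 symbol, 932 several and 9160 none; 34741 matched the reference gene table (GRCm38.p6). All comparisons used log2(signal + 16). Probe sets had to reach the median of their array in the pool or in 2 or more pnd2 samples (25841 kept, 21934 with 1 symbol, 13050 genes), and the brightest stood for its gene. Gene lists were counted over 18193 genes, since a filter through the pool favours depleted genes. Genes that passed the filter kept their probe set, and the others were added with their brightest one. The fetal test used limma 3.58.1 in R 4.3.3 on 12 arrays (1 mean per stage, eBayes with an intensity trend) and was tested on simulated data. Its p-values measure the spread between samples, which are separate animals. Sums, counts and figures were made in Python 3.11.15. Named genes are members of the lists and, per direction, the 20 with the largest difference among called genes at least 2 log2 units above the median of the genes compared on the higher side, passing over clone and model names. The members and lists were chosen with earlier results of these data known. Alternatives were constants of 1 and 64, median centring, quantile normalization, no filter and a stricter one, other choices of probe set, other call rules, each array left out, and gd18 in place of pnd2. The number of arrays limits the precision. Promoter windows came from a RefSeq table, and no whole genome was used here.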

Additional observations from a re-analysis of the deposited data

How the results depend on the processing

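The counts of 1181 enriched and 2202 depleted genes stayed within 1.5 times under constants of 1 (1260 and 2290) and 64 (975 and 1949), median centring (1709 and 1751), quantile normalization (1360 and 2030), no filter (1282 and 2561) and both other choices of probe set. Leaving out 1 epididymis array gave 1358 to 1562 enriched and 2402 to 2461 depleted genes. A filter at the upper quartile, with fewer genes, gave 1327 depleted. Asking only for a mean of 2-fold and 1 direction gave 2066 enriched, and asking for 4-fold on every array 241 enriched and 1151 depleted. With gd18 as the organ side, against the same pool, the counts were 1543 and 2354. The count of 16 organ lists with over 50% of their genes depleted stayed at 16 with median centring, was 17 without replicate 2 and without replicate 3, and 19 among genes that passed the filter; the last and the one without replicate 2 were chosen after seeing the data. Of the 632 called genes named by rule, 6 changed sign under some alternative. The call was not made for 31 with a constant of 64, 43 with median centring, 20 with quantile normalization, 20 with the mean of probe sets, 43 with gd18 as the organ side and 186 at 4-fold, and with a constant of 64 the value moved by over 1 SD for 331. The sign changed for Meg3 with the mean of its probe sets (-0.133), Cdc20, Hbb-b2 and Wnt5b without probe sets that may match related transcripts (-0.304, 0.941 and -0.046) and Chrdl1 and Smyd1 with gd18 as the organ side (-0.193 and 0.354). For Emx2, gd18 minus gd12 ran from -0.298 to 0.056 when arrays were left out, the latter without gd12 replicate 13. The cause was not tested. In the fetal test 418 enriched genes rose and 167 fell; leaving out an array gave 377 to 418 and 133 to 168, and the fit to all 15 arrays gave 316 and 91. No paired analysis was possible because the pool has no replicate and replicate numbers are not shared between groups. Signals near or below 16 limit the size of the deepest depletions and of excesses over a pool signal near the floor.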
